A study of Mus musculus with 2 samples.

Results

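The azurophil granule is the first granule that a developing neutrophil fills, and 8 genes of its cargo and packaging were followed in neutrophils grown without the microRNA miR-223. They were Mpo, Elane, Prtn3, Prss57, Lyz2, Lyz1, Srgn and Calr, taken by gene symbol from the platform annotation, with older symbols matched through Entrez identifiers. The arrays carried probe sets of their own for 7 of the 8, out of 18193 genes measured, and all 7 were among the 11006 genes counted as expressed. No probe set was named for Prss57, the neutrophil serine protease 4, and it has no value here. The 7 genes had 11 probe sets, the groups of short oligonucleotides whose signals are summarised into 1 intensity.

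The knockout culture came from male C57BL/6 mice lacking miR-223 (labelled mir-223 knockout), and the wild-type culture from male C57BL/6 mice. Both began as blood-forming progenitors of the bone marrow and were kept for 6 days with granulocyte colony-stimulating factor, which drives neutrophil production, and stem cell factor, the ligand of Kit. Both received cycloheximide, a blocker of translation, at 100 ug/ml for the last 8 min before harvest, so no culture without it was available. Each genotype was measured on 1 array, so the spread between cultures is unknown, no test was run, and each difference compares 1 array with 1 array. Each difference is the log2(intensity + 16) of the knockout array minus that of the wild-type array. Intensities depend on each probe set's own affinity and are not per length, so levels are compared between arrays and not between genes.

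Azurophil granules are made at the promyelocyte stage, before the specific and gelatinase granules. Their peroxidase turns hydrogen peroxide and chloride into hypochlorous acid, their serine proteases are stored active and cut bacterial proteins and matrix, and their cargo is held by a proteoglycan core. Transcription of the peroxidase and serine protease genes is strongest in promyelocytes and is driven by the myeloid factors PU.1, C/EBP and RUNX and by MYB. MiR-223 is abundant in the granulocyte lineage and acts by pairing its seed with matching sites in messenger RNAs. Its main mature strand from RefSeq (GRCm38.p6, chrX:96242884-96242905, plus strand) is shown because it is the regulator missing from the knockout, with the seed, bases 2 to 8, in capitals.
mmu-miR-223-3p: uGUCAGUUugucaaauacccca
No probe set was named for the gene of miR-223, so its absence from the knockout array was not checked. Target sites in the granule genes were not searched, since transcript sequences were not used here.

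Prtn3 and Elane lie next to each other on chromosome 10, and 6 of the 8 genes are on that chromosome. Mpo is on chromosome 11 and Calr on chromosome 8. The promoters of the peroxidase and of the neighbouring protease genes are shown because these genes encode the main enzymes of the granule and were all higher on the knockout array. Each window runs from 250 bases before to 49 bases after the annotated start (RefSeq, GRCm38.p6, plus strand), and capitals mark matches to GAGGAA (PU.1), TTNNGCAA (C/EBP), TGTGGT (RUNX) or AACGG (MYB) on either strand.
Mpo, chr11:87793534-87793833: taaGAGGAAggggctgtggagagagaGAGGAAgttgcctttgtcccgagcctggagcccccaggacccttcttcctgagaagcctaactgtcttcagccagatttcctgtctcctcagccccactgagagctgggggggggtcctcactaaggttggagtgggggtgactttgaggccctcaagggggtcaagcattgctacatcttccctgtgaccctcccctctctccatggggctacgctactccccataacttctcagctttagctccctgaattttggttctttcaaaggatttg
Elane, chr10:79886062-79886361: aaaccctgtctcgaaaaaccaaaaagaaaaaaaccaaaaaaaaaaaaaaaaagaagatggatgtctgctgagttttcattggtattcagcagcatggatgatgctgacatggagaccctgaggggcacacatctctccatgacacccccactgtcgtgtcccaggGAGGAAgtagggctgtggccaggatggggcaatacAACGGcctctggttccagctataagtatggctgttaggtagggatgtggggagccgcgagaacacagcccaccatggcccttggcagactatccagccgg
Prtn3, chr10:79879417-79879716: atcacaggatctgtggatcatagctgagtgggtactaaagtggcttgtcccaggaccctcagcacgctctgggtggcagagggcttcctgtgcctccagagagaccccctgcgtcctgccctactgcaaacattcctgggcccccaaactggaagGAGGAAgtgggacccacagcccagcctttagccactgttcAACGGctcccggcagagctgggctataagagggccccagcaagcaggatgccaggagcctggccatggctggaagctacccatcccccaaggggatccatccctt
The Elane window held 1 PU.1 match, starting 85 bases before the start, and 1 MYB match at 50 bases before it. The Prtn3 window held the same pair in the same order, at 95 and 55 bases before the start. The Mpo window held 2 PU.1 matches, at 247 and 224 bases before the start, and no MYB match. Of 32851 promoter windows of this length in the table, 28.3% held the PU.1 letters, 17.5% the MYB letters and 5.03% held both. The C/EBP letters (10.8% of windows) and the RUNX letters (16.8%) were not in these 3 windows. Among the other genes, Lyz1 had a C/EBP match, Lyz2 a RUNX match and Srgn a RUNX match at 1 of its 2 annotated starts, and Calr had none. Prss57 was not in the promoter table. A match is only a run of letters, and binding was not measured.

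**Figure D1:**
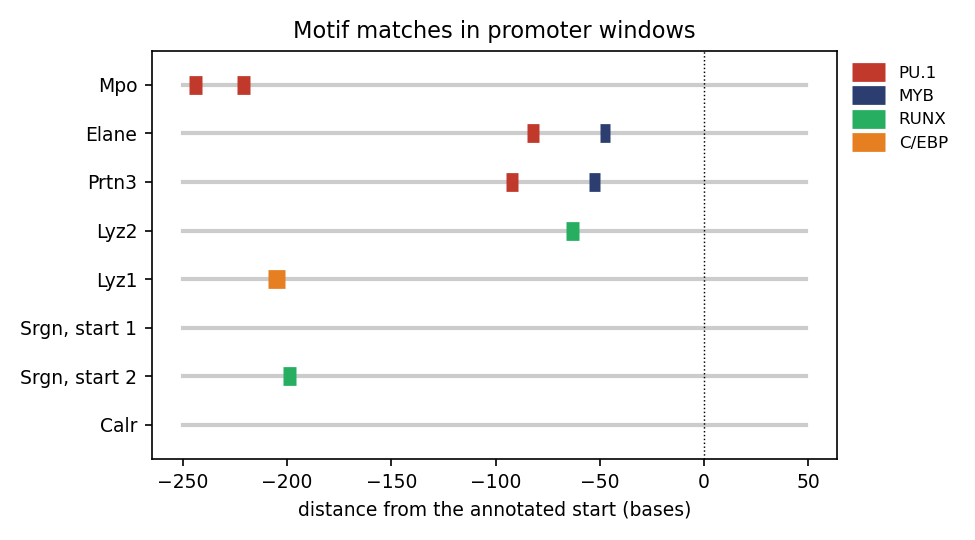
Positions of the motif matches in the 8 promoter windows of 7 genes, as distance in bases from the annotated start (dotted line). Coloured blocks are matches to the PU.1, MYB, RUNX and C/EBP letters, and Elane and Prtn3 both show a PU.1 match followed by a MYB match.

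The genes of the azurophil granule were slightly higher on the knockout array. All 7 measured genes were higher, against 49.7% of expressed genes, and their median difference was 0.14, against -0.00037 for all expressed genes. The differences were small, from 0.04 to 0.16, or 2.55% to 11.6% in intensity. None of the 7 reached a 2-fold difference in either direction, which 0.0999% of expressed genes reached upward and 0.0454% downward. Probe sets of 1 gene, pooled over 5017 expressed genes with several, differed from each other with an SD of 0.144, which measures spread within the arrays and is no replicate error. At the brightness of these genes, at or above that of Calr, the same SD was 0.039 over 14 genes. Mpo, Elane and Prtn3 exceeded the first SD, Srgn, Lyz1 and Lyz2 only the second, and Calr neither.

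Mpo encodes myeloperoxidase, the heme enzyme that makes hypochlorous acid. Its probe set gave 19393 on the knockout array and 17416.5 on the wild-type array, a difference of 0.15. Only 12 probe sets on the knockout array and 22 on the wild-type array were brighter, and whether signals this bright still follow RNA in proportion was not tested. Other peroxidase genes lie near Mpo on chromosome 11. Lpo, lactoperoxidase, was not expressed, at 13.6 on the knockout array and 13.7 on the wild-type array. Epx, the eosinophil peroxidase, was lower in the knockout, at 79.4 on the knockout array and 104.7 on the wild-type array (-0.34).

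Elane encodes neutrophil elastase, which cuts elastin and bacterial outer membrane proteins. Elane gave 15172 on the knockout array and 13593 on the wild-type array, a difference of 0.16 and the largest of the 7. Prtn3 encodes proteinase 3, a close relative of elastase and the main target of autoantibodies in human granulomatosis with polyangiitis. Prtn3 gave 19015.5 on the knockout array and 17077 on the wild-type array, a difference of 0.15. Around the protease pair, Plppr3, on the far side of Prtn3, stood at 0.11, Ptbp1, a splicing regulator, at 0.07, and Med16, a Mediator subunit beyond Elane, at 0.06. The other near neighbours were lower, with R3hdm4 at -0.02, Kiss1r at -0.09 and E130317F20Rik at -0.08. The nearest measured genes of Prss57 went opposite ways, with Fstl3 at 0.18 and Palm at -0.10.

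Lysozymes cleave the peptidoglycan of bacterial walls, and the mouse has 2 neighbouring genes. Lyz2 is the form of myeloid cells, and Lyz1 is known from Paneth cells of the gut. Lyz2 gave 16991 on the knockout array and 15954 on the wild-type array, a difference of 0.09. For Lyz1 the brightest probe set gave 20014 on the knockout array and 18637 on the wild-type array (0.10), and another gave 10286 and 9478 on the knockout and wild-type arrays (0.12). Both carry the suffix _x_at, which marks probes shared with similar sequences of other genes. The third Lyz1 probe set, which lacks that suffix, was below the expression cut, at 18.8 on the knockout array and 16.1 on the wild-type array. The bright Lyz1 values are uncertain as to their gene, and how much of them comes from similar transcripts such as Lyz2 was not tested. With quantile normalization the Lyz1 difference was 0.044.

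Srgn encodes serglycin, the proteoglycan core whose sulfated chains hold the positively charged proteases in the granule. It gave 14535 on the knockout array and 13171 on the wild-type array, a difference of 0.14. Serglycin is also packed into granules of mast cells and platelets, most of whose markers were lower in the knockout. An exception was the platelet integrin gene Itgb3 (1.34, with its other probe set at 0.37). Calr encodes calreticulin, the chaperone of the endoplasmic reticulum that binds the myeloperoxidase precursor. Its 3 probe sets gave 8367, 6600.5 and 7849 on the knockout array, against 8159, 6293 and 7150.3 on the wild-type array. Their differences were 0.04, 0.07 and 0.13, all upward, and the mean of the 3 was 0.080. All 3 Calr probe sets have suffixes for sequence shared between transcripts or genes.

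**Figure D2:**
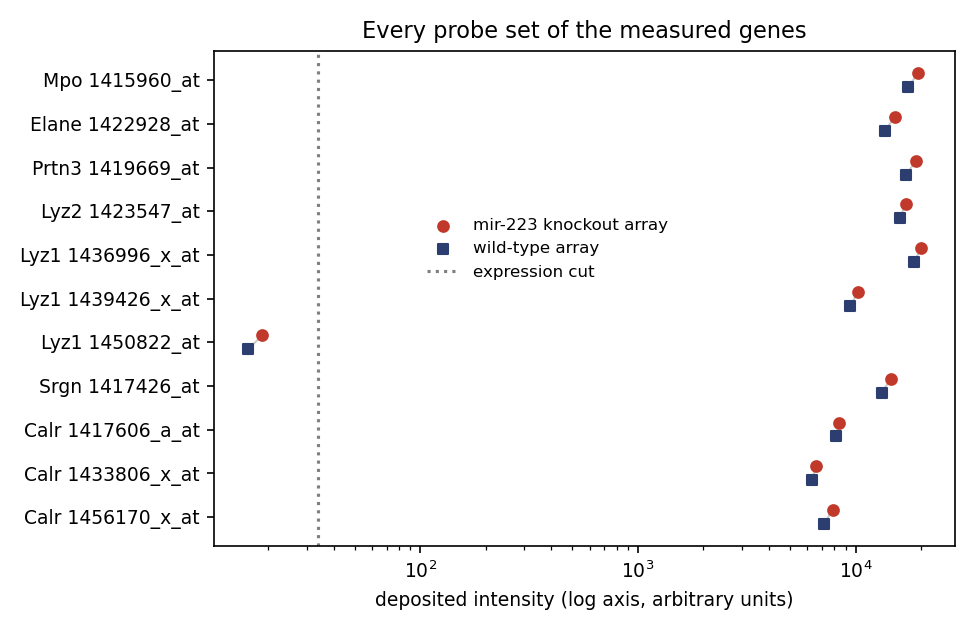
Deposited intensity of each of the 11 probe sets on a log axis, with the knockout array as red circles and the wild-type array as blue squares. Of the 11 probe sets, 10 lie far above the expression cut (dotted), the third of Lyz1 lies below it at 18.8 and 16.1 on the knockout and wild-type arrays, and every red circle lies to the right of its square.

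All 11 probe sets of the 7 genes were higher on the knockout array, 10 of them expressed. Because these genes are among the brightest on the arrays, they were also set against the 94 expressed genes that were at least as bright as Calr, a mean intensity of about 8262 or more. In that group, which contains the 7 genes themselves, 59.6% were higher in the knockout. The other 87 had a median difference of 0.02, an SD of 0.093 and a range from -0.29 to 0.31, with 49 higher and 38 lower. By brightness, the median was 0.02 for 77 genes at a mean log2 of 13 to 14 and 0.055 for 17 at 14 to 15. The 77 include Elane, Srgn and Calr, and the 17 include Mpo, Prtn3, Lyz1 and Lyz2. A difference as high as that of Elane was seen in 7.45% of the 94 and in 16.7% of all expressed genes. For Lyz2 these shares were 24.5% and 28.1%, and for Calr 43.6% and 40.5%. The 7 genes lay above the median of the bright genes and inside their range. Several of them are expressed at the same stage of maturation, so they are not independent measurements.

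**Figure D3:**
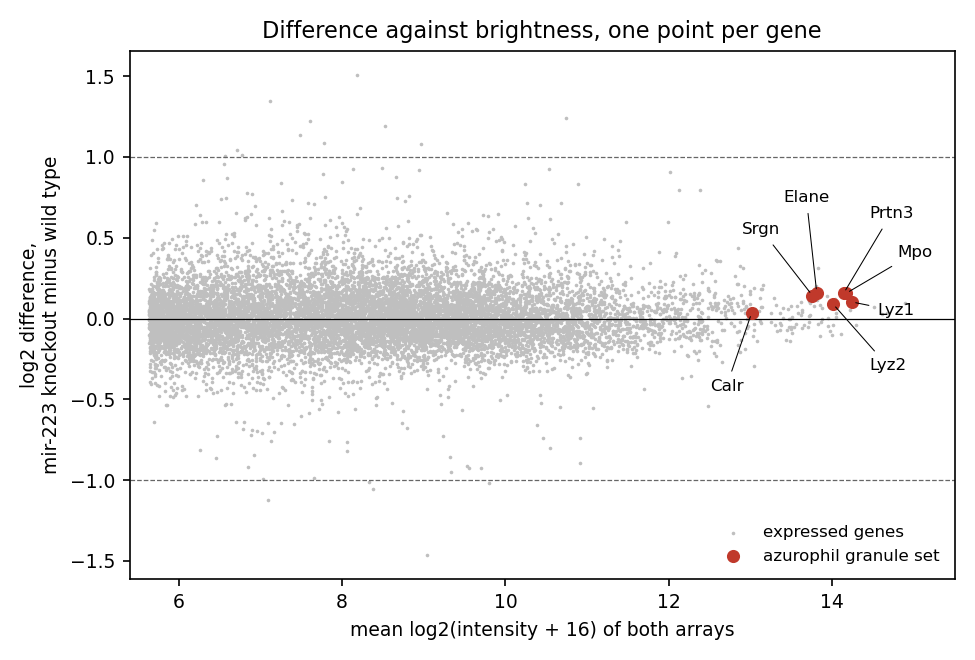
Log2 difference, mir-223 knockout minus wild type, against mean log2(intensity + 16), with each expressed gene in grey and the 7 granule genes in red. Dashed lines mark 2-fold, and the red points lie between 0.04 and 0.16 at the bright end.

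The rest of the azurophil cargo stood in the same direction. Of 15 further azurophil and lysosomal granule genes, 12 were measured and expressed, and all 12 were higher in the knockout, with a median of 0.17. Among all expressed genes 49.7% were higher, the share to set beside each list count below. Ctsg, which encodes cathepsin G, a further serine protease of this granule, gave 17535 on the knockout array and 16155 on the wild-type array, a difference of 0.12. The differences were largest for Man2b1, a lysosomal mannosidase, at 2362 on the knockout array and 1872 on the wild-type array (0.33), and Cd68, a membrane glycoprotein of lysosomes (0.31). They were followed by the fucosidase Fuca1 (0.27) and the arylsulfatase Arsb (0.25). The other 3 were not analysed here. Gaa, the acid glucosidase, was nearest to 0, with probe sets at -0.03 and 0.03.

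Genes that activate or inhibit the proteases were divided. Of 6 expressed genes, 4 were above 0 and 2 below, and the median was 0.11. Serpinb1a, an inhibitor of elastase, proteinase 3 and cathepsin G, gave 7148 on the knockout array and 5593 on the wild-type array, and its 2 probe sets stood at 0.35 and 0.56. Ctsc, the peptidase that removes the propeptide of these proteases, stood at 0.14, but its probe sets ran from -0.15 to 0.24. Cst7, an inhibitor of cathepsin C, stood at 0.11. Serpina3n, a serpin near the expression cut, was lower (-0.15).

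The lists of genes that fold, equip and sort the cargo had small medians, all above 0. Of 15 genes of folding in the endoplasmic reticulum, 13 were higher, with a median of 0.06 (0.11 with the mean of all probe sets and 0.096 without shared suffix classes). The disulfide isomerase Pdia4 (0.28), the proprotein convertase Furin (0.19) and Sdf2l1, a chaperone partner (0.17), were highest, and the oxidase Ero1a stood at -0.16 with probe sets up to 0.09. Heme synthesis, which supplies the cofactor of myeloperoxidase, had 4 of 7 genes higher and a median of 0.09 (0.035 with the mean of all probe sets). Ppox stood at 0.26 and Uros at 0.12, whereas Cpox (-0.20) and Alad (-0.17) were lower. Of 11 genes of granule traffic and of inherited neutropenia, 7 were higher, with a median of 0.03 (0.017 with quantile normalization). The range was from -0.15 for Jagn1, which acts in the early secretory pathway, to 0.14 for the glucose-6-phosphatase G6pc3, with Vps13b at 0.10 and Lyst at 0.08.

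The chondroitin sulfate chains of serglycin are built by a series of transferases. Of 9 expressed genes, 4 were above 0 and 5 below, and the median was -0.02, which turned to 0.00067 with the mean of all probe sets. The galactosyltransferases B4galt7 (-0.34) and B3galt6 (-0.17), which make the linker, were lower. Csgalnact2, which starts the chain, stood at 0.20 and the sulfotransferase Chst12 at 0.13.

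Among transcription factors of the granulocyte lineage, 7 of 9 were higher, with a median of 0.09 (0.055 with quantile normalization). Gfi1, a repressor needed for granulocytes, gave 1390.2 on the knockout array and 1045 on the wild-type array (0.41), and Cebpd stood at 0.29. Myb, which is expressed in progenitors and early granulocytes, gave 4390.5 on the knockout array and 3900.1 on the wild-type array (0.17). Irf8, a factor of the monocyte lineage, also stood at 0.17. Spi1, the gene of PU.1, stood at 0.07, Runx1 at 0.09 with probe sets from -0.17 to 0.17, and Cebpa at -0.01. Over these 7 lists together, 51 of 69 expressed genes stood above 0 and 18 below it, at a median of 0.08 and with 0 at 2-fold or more. Among all expressed genes, 49.7% were higher and the median was -0.00037.

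Later granule classes were set beside the azurophil genes. Of 11 specific granule genes, 7 were higher, with a median of 0.04, and they varied more than the azurophil genes. They ran from -0.54 for the peptidoglycan-binding protein Pglyrp1, with Orm1 at -0.39 and the cathelicidin Camp at -0.29, to 0.59 for the surface protein Cd177. Of those at least as bright as Calr, Ltf (0.07), Ngp (0.03), Lcn2 (0.04), Chil3 (0.13) and Hp (0.08) were higher and Camp was lower. Apart from Camp, these bright genes stood close to the 0.04 to 0.16 of the azurophil set. Of 7 genes of gelatinase granules and mature neutrophils, 6 were higher, with a median of 0.26. Itgam (0.65), the chemokine receptor Cxcr2 (0.38), the receptor Csf3r (0.33) and the gelatinase Mmp9 (0.26) were highest. Bright signals of early and of late granule genes were present on both arrays. S100a8, which marks maturing neutrophils, gave 26320.3 on the knockout array and 25757 on the wild-type array, and S100a9, its partner, gave 31305 and 29262 on the knockout and wild-type arrays.

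**Figure D4:**
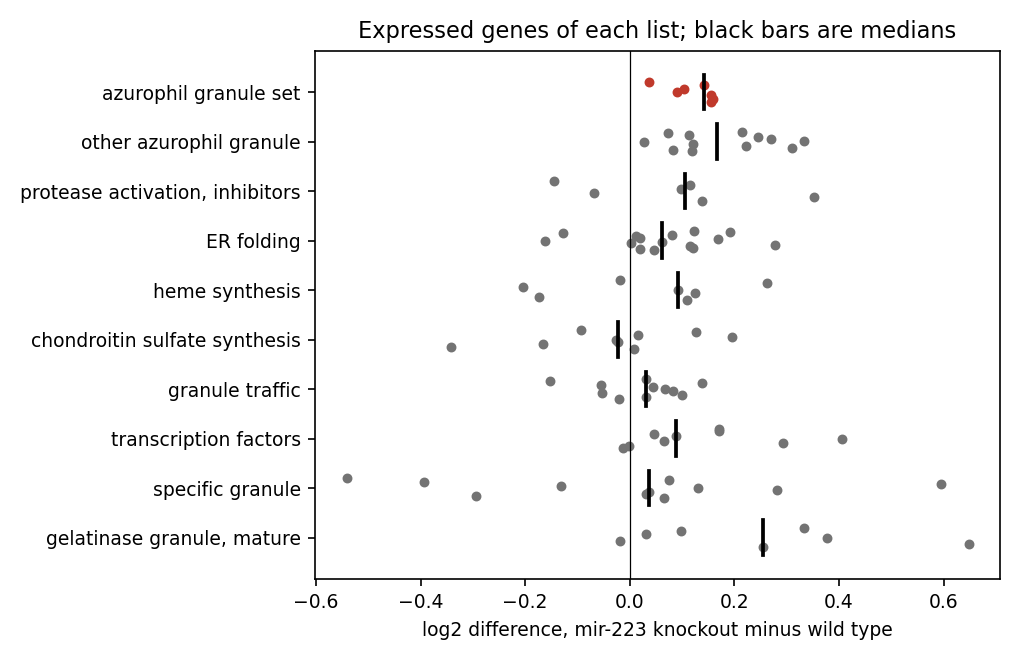
Log2 difference, mir-223 knockout minus wild type, of each expressed gene in the azurophil granule set (red) and in 9 related lists (grey), with black bars for medians. The red points and the other azurophil genes all lie above 0, while the specific granule genes spread from -0.54 to 0.59.

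Markers of other blood cells were measurable on both arrays and differed between them. In such bulk samples, fewer cells of a type and less RNA per cell cannot be told apart. Each sum adds the intensities of all measured markers of a list, expressed or not. Of 10 expressed monocyte and macrophage markers, which are cells that share Lyz2 with neutrophils, 7 were higher. Apoe, a lipoprotein component, gave 473 on the knockout array and 156 on the wild-type array (1.51), Ly86 stood at 0.71, Ctss, the protease cathepsin S, at 0.48, and the chemokine receptor Cx3cr1 at -0.60. The 11 measured genes summed to 11741 on the knockout array and 9977 on the wild-type array.

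All 9 mast cell and basophil markers were lower by their brightest probe sets, though another probe set of Kit stood at 0.18. Cma1 (-0.76), Cpa3 (-0.74), Fcer1a (-0.56), Mcpt8 (-0.55), Ms4a2 (-0.53) and Gata2 (-0.53) were at 0.5 or more in size, and the sums were 4644 on the knockout array and 6666 on the wild-type array. The platelet lineage had 5 of 6 markers lower, with Ppbp at -1.06 and Pf4 at -0.91. By its brighter probe set, Itgb3 was higher, at 205 on the knockout array and 71.1 on the wild-type array. The sums of the platelet markers were 1258 on the knockout array and 1960.2 on the wild-type array. Eosinophil granule genes were lower, with Prg3 at -0.92, Prg2 at -0.73 and Epx as given above, whereas the lectin gene Siglecf stood at 0.92, with sums over 6 measured genes of 1006 on the knockout array and 1233 on the wild-type array.

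All 4 progenitor markers were higher, with sums of 2317 on the knockout array and 1996 on the wild-type array. The 3 expressed dendritic cell markers were all lower by their brightest probe sets, but H2-Ab1 only at -0.01, with probe sets up to 0.13. The sums over 4 measured genes were 843 on the knockout array and 1019 on the wild-type array. B cell genes had 2 of 3 expressed markers higher. Ighm stood at 0.64, though its probe sets spanned -0.14 to 0.94, and the 4 measured genes summed to 1279 on the knockout array and 862 on the wild-type array. The T cell marker Cd3d gave 41.8 on the knockout array and 85.7 on the wild-type array (-0.81), while Nkg7 of cytotoxic cells gave 1181 and 847 on the knockout and wild-type arrays (0.47). Of the erythroid genes, Epor stood at 0.18 and Klf1 at -0.17. Mrc1 of macrophages, Cd3e and Cd3g of T cells, Cd79a of B cells, Cd209a of dendritic cells, Alas2 and Hba-a1 of erythroid cells and Ccr3 and Il5ra of eosinophils were below the expression cut. The part of these cells in the differences of Lyz2, Srgn and the other granule genes was not tested.

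The chromosomal neighbours of the 8 genes were divided. Up to 3 measured neighbours to either side gave 35 other genes, of which 28 were expressed. Of these, 12 were above 0 and 16 below, and the median was -0.02. They ran from -0.57 for Gadd45gip1, next to Calr, to 0.22 for Tspoap1, next to Mpo.

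The arrays had near-equal levels, with 90th percentiles of 704 on the knockout array and 696 on the wild-type array. The poly-A spike-in controls, added to the RNA before labelling, were lower on the knockout array for 24 of 24 probe sets, with a median of -0.17. The hybridization controls, added after labelling, were lower for 17 of 18, with a median of -0.11. Scaled to the poly-A controls, the median of all expressed genes was 0.17, and the 7 granule genes stood at 0.21 to 0.33. The median of the 7 genes, 0.32, is 0.14 above that shift. This equals the deposited scale by construction, because the scaling adds the same amount to every difference. The control probe sets for the 5' ends of the housekeeping genes Actb (0.11) and Gapdh (0.12) were higher by amounts close to those of the lysozymes. Their middle parts stood at 0.11 and 0.07, and their 3' ends at 0.04 and 0.03.

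**Figure D5:**
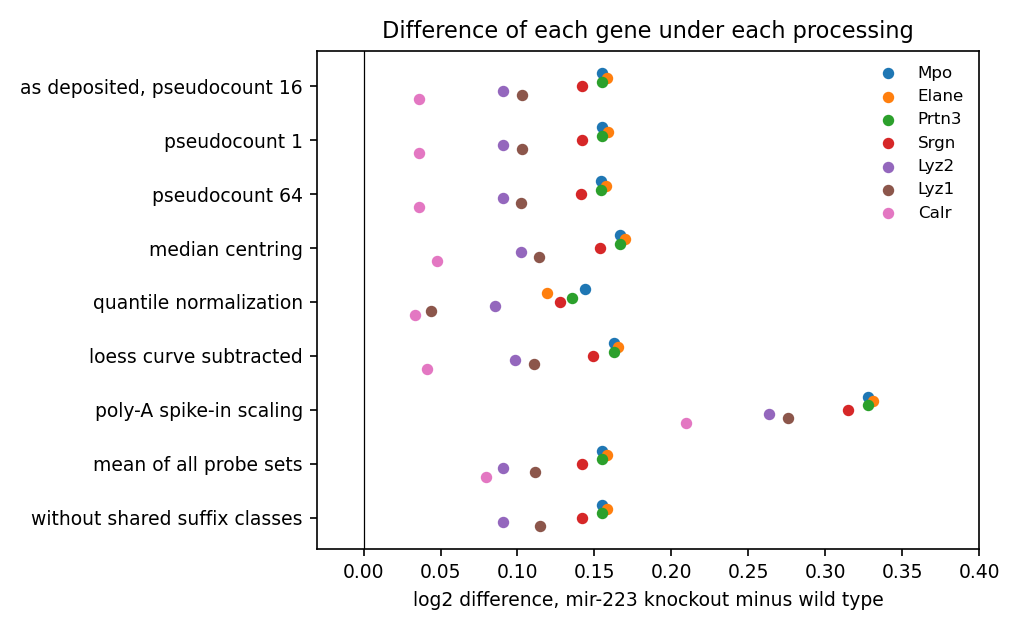
Log2 difference, mir-223 knockout minus wild type, of each of the 7 genes (colours) under the deposited scale and 8 other ways of processing. Every value is above 0, and with poly-A spike-in scaling they lie between 0.21 and 0.33. Only quantile normalization and the loess curve could have brought a value below 0. Without shared suffix classes Calr has no value and Lyz1 rests on its dim probe set.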

How the data were processed

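Total RNA of 2 cultures was measured, 1 array per genotype. The value table deposited by the authors holds linear intensities, 1 column for each array. Per the labels' protocols, cRNA was made with the Affymetrix 3' IVT Express kit. Background correction, summarization and normalization: not given in the sources used here. Values were used as deposited.

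Of 45037 probe sets other than the 64 controls, the platform annotation gave 34945 to 1 gene, 932 to several and 9160 to none. Only the first were named, with 34741 symbols updated by Entrez identifier (RefSeq, GRCm38.p6). A gene is given by whichever of its probe sets was brightest on average, on the scale log2(intensity + 16). Expressed meant a mean at or above 5.64, the median of all probe sets. Calculations used Python 3.11.15, pandas 2.3.3 and statsmodels 0.14.6, and were tested on artificial data.

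The genes and lists were chosen with earlier results of these data known. Named list genes were up to 4 with the largest differences and any at 0.5 or more. Ctsg, Gaa, Spi1, Runx1, Cebpa, S100a8, S100a9, the genes named as below the expression cut, the genes whose promoters are printed and the group of bright genes were chosen after their values were seen. So were the bright specific granule genes Ltf, Ngp, Lcn2, Chil3 and Hp. Motifs were chosen for their factors' roles. Neighbours were the 3 nearest measured genes on each side. Alternatives were pseudocounts of 1 and 64, median centring, quantile normalization, a loess curve (span 0.3), poly-A scaling, the mean of probe sets, suffix classes left out, and other filters and thresholds.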

Additional observations from a re-analysis of the deposited data

How the results depend on the processing

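With 1 array per genotype no replicate could be left out. No paired analysis was possible because the labels give no replicate numbers and each group holds 1 array. Of 169 values recomputed under the alternatives, 152 were scored as unmoved. Differences and medians were scored so when they moved by less than the SD between probe sets of a gene (0.144). Counts were scored so when equal or within a ratio of 1.5. That SD is about as large as the largest granule gene differences, so a fall to near 0 could pass as unmoved. Lyz1, at 0.10 as deposited and 0.044 with quantile normalization, was scored as unmoved. The 17 that moved more all came from poly-A spike-in scaling, which by construction adds 0.17 to every difference. It gave Elane 0.33, Mpo 0.33, Prtn3 0.33, Srgn 0.32, Lyz1 0.28, Lyz2 0.26 and Calr 0.21, with a median of 0.32 over the 7 genes. The list medians became 0.34 for other azurophil genes, 0.28 for protease activation and inhibitors, 0.23 for folding, 0.27 for heme synthesis, 0.15 for chondroitin sulfate, 0.20 for granule traffic, 0.26 for transcription factors, 0.21 for specific granules and 0.43 for mature genes. In none of the 55 recomputed differences of single granule genes did the sign change. Most of these could not change sign. All 11 probe sets were higher as deposited, which fixed the outcome for other pseudocounts, the probe set mean and suffix classes left out. Median centring and poly-A scaling added to each difference. Only quantile normalization and the loess curve could have changed a sign. Without shared suffix classes 5 of the 7 genes had an expressed probe set, all higher. None of the 7 granule genes reached 1.5-fold or 0.5 on the log2 scale. The share of all expressed genes at these sizes was not counted. Of the 11 probe sets, 10 were above the expression cut. Precision is limited by the number of arrays.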
